A study of Homo sapiens with 48 samples.

Results

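The integrated stress response is described here through 10 of its regulators, ATF4, ATF3, ATF5, DDIT3, TRIB3, CEBPB, CEBPG, PPP1R15A, JDP2 and NUPR1. They were taken by gene name from a table of 57820 genes, and all 10 were among the 19129 genes that passed a filter on low counts and were tested. RNA came from Flp-In 293 T-REx cells, derived from the human embryonic kidney line HEK293 so that transgenes can be inserted at 1 chosen locus. The study varied the ATPase of UPF1, the helicase on which nonsense-mediated decay (NMD) depends, a pathway that removes mRNAs with early stop codons and also many intact ones. Of 8 stable lines, 6 expressed UPF1 fused to the CLIP protein tag and carrying the change K498A, DE636AA, R843C, A546H, GA-KH or E797R, 1 expressed CLIP-tagged wild-type UPF1 (line WT), and 1 is labelled with the CLIP tag and no UPF1 (line CLIP). K498A and DE636AA alter the motifs with which the helicase binds and hydrolyses ATP.

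Every line was transfected with 40 nM of an siRNA against endogenous UPF1 (siUPF1) or of a non-targeting siRNA (siNT) and harvested after 72 h, in 3 replicates each. That gave 48 libraries in 16 groups, 8 with siUPF1 and 8 with siNT. The endogenous UPF1 gene was present in every line, so the siNT libraries of the 7 CLIP-UPF1 lines held both forms. Whether a line is a pool or 1 clone is not given in the labels. The triplicates are called biological replicates in the series' design text.

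In the integrated stress response, kinases such as PERK and GCN2 phosphorylate the initiation factor eIF2, general translation falls, and mRNAs with particular upstream reading frames are translated more. ATF4 is the main such mRNA; its protein is a basic leucine zipper (bZIP) factor that pairs with C/EBP proteins and activates amino acid and redox genes. Further members act beside or after it. DDIT3 encodes CHOP, TRIB3 a pseudokinase that holds ATF4 back, and PPP1R15A the GADD34 subunit that brings the phosphatase to eIF2 and ends the response. The mRNAs of ATF4, ATF3 and DDIT3 are also known as targets of NMD in mammalian cells.

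Promoter letters are shown for the members whose 250 bases before the start site held a motif bound by ATF4 or its relatives, with the motif in capitals. The sequences are from RefSeq, build GRCh38.p14, written 5′ to 3′ on the gene's strand. The first is CEBPG at chr19:33373863-33374112 (+ strand), the next PPP1R15A at chr19:48872171-48872420 (+ strand) and the last DDIT3 at chr12:57520518-57520767 (− strand).
CEBPG: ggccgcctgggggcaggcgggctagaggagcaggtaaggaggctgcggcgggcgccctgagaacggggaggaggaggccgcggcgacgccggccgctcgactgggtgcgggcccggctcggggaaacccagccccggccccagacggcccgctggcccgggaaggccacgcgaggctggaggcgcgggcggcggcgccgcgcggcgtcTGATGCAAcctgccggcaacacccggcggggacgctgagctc
PPP1R15A: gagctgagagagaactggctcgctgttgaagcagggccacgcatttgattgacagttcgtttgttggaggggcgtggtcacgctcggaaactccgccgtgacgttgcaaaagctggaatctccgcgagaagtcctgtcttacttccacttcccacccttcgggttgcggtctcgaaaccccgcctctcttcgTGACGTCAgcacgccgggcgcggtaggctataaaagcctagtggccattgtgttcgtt
DDIT3: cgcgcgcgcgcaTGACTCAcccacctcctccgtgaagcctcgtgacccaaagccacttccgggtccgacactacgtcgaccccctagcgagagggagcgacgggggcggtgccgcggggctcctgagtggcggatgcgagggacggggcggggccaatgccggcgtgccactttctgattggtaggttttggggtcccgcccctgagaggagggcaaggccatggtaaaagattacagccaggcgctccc

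The motifs were searched on both strands of the window from 250 bases before to 50 after the start site, in which 9 members had an entry; NUPR1 was not among them. The C/EBP-ATF composite element, spelled TGATGNAA, was found in CEBPG, beginning 42 bases before the start, and in 3.62% of 35116 promoters. The cyclic AMP response element, TGACGTCA, was found in PPP1R15A, 58 bases before the start, and in 1.85% of promoters. The AP-1 element, TGANTCA, was found in DDIT3, 238 bases before the start, and in 7.71% of promoters. No match overlaps another. A match describes letters in the window and shows no binding.

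In 1 coding transcript per gene of the GENCODE 29 annotation, the best ranked by its APPRIS principal tag and then the longest, 8 of the 10 members had at least 1 ATG upstream of the coding start, against 51.7% of 19471 genes. Those without one were CEBPB and JDP2. ATF4 had 7 upstream ATGs in a 5′ untranslated region of 882 nt, where the median over all genes was 180 nt. An upstream frame ran into the coding sequence in ATF4, ATF3, ATF5 and DDIT3, 4 of 10 members against 16.5% of genes. In these transcripts no member had an exon junction more than 50 nt after the stop codon of its coding sequence. This feature marks many NMD targets, and 0.442% of genes had it. Only transcripts classed as protein coding could be picked, for the members and for all genes alike. Transcripts classed as NMD transcripts were thus left out beforehand, so neither value shows how common the feature is among a gene's transcripts. Junctions after the stops of upstream frames were not counted. Among other annotated transcripts, 1 of ATF3 and 1 of NUPR1 are classed as NMD transcripts.

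Libraries totalled 21.3 to 47.1 M expected counts, with a median of 32.3 M. Levels are given as CPM, the counts per 1000000 of the normalised total. UPF1 itself, which counts endogenous and tagged RNA together, fell in CLIP, with 18.2, 36.8 and 17.7 CPM with siUPF1 against 105 to 113 CPM with siNT. Its log2 fold change was -2.17 (standard error, SE, 0.17; edgeR adjusted p = 4.83e-13). In the 7 CLIP-UPF1 lines UPF1 stood at 3695 to 8235 CPM with siUPF1 against 4027 to 6238 CPM with siNT, and no change was called. CLIP siUPF1 replicate 2 stood apart, with the 36.8 CPM above and the lowest mitochondrial share of all libraries, 0.631% where the highest was 2.92%. The 8 genes of the HEK293 identity list were all tested. With siUPF1 in CLIP 3 of them rose and 2 fell (edgeR adjusted p under 0.05), where 25.1% of all tested genes rose and 22.3% fell. PAX2 changed by -1.09 (adjusted p = 5.58e-05), CDH2 by -0.51 (3.63e-05) and NEFL by 0.79 (0.00012) on the log2 scale. Of 12 markers of other cell types 4 were tested (COL1A1, COL3A1, EPCAM and CDH1). The epithelial cadherin gene CDH1 was lower with siUPF1 in all 8 lines, by a log2 fold change of -2.03 (SE 0.23) in CLIP, and the part of such shifts in the results below was not tested. Among the other markers those found by symbol reached at most 5 counts in any library.

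The response to siUPF1, that is the log2 fold change of siUPF1 over siNT within a line, was called for all 10 members in CLIP, each of them higher. Of the mutant lines K498A had 7 members that rose, DE636AA 9, R843C 6, A546H 6, GA-KH 2 and E797R 4, and WT had 3. The fit behind these counts paired no replicates, and calls with a replicate block are given further on. No member was called lower in any line in this fit. With no filter on low counts DDIT3 and TRIB3 in GA-KH (-0.40 and -0.32) and ATF3 in WT (-0.31, edgeR adjusted p = 0.0343) were called lower. DDIT3 in GA-KH was also called lower without siUPF1 replicate 2 or siNT replicate 1 of that line (-0.53 and -0.54). A call is an adjusted p under 0.05 by Benjamini-Hochberg in edgeR's quasi-likelihood test over all 19129 genes. By this rule the share of all tested genes called higher was 16.2% for K498A, 16.7% for DE636AA, 17.7% for R843C, 17.2% for A546H, 14.5% for GA-KH, 16% for E797R, 14% for WT and 25.1% for CLIP. Lower genes made up 16.5% for K498A, 17.6% for DE636AA, 14.8% for R843C, 15% for A546H, 13.8% for GA-KH, 13.5% for E797R, 13.3% for WT and 22.3% for CLIP. The 2 of 10 members in GA-KH and the 3 of 10 in WT therefore lie nearer to the background than the 9 of 10 in DE636AA or the 10 of 10 in CLIP. The median log2 fold change of the members was 0.66 for K498A, 0.77 for DE636AA, 0.36 for R843C, 0.29 for A546H, 0.14 for GA-KH, 0.17 for E797R, 0.07 for WT and 1.09 for CLIP, where the median of all tested genes lay between -0.021 and 0.021.

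**Figure D1:**
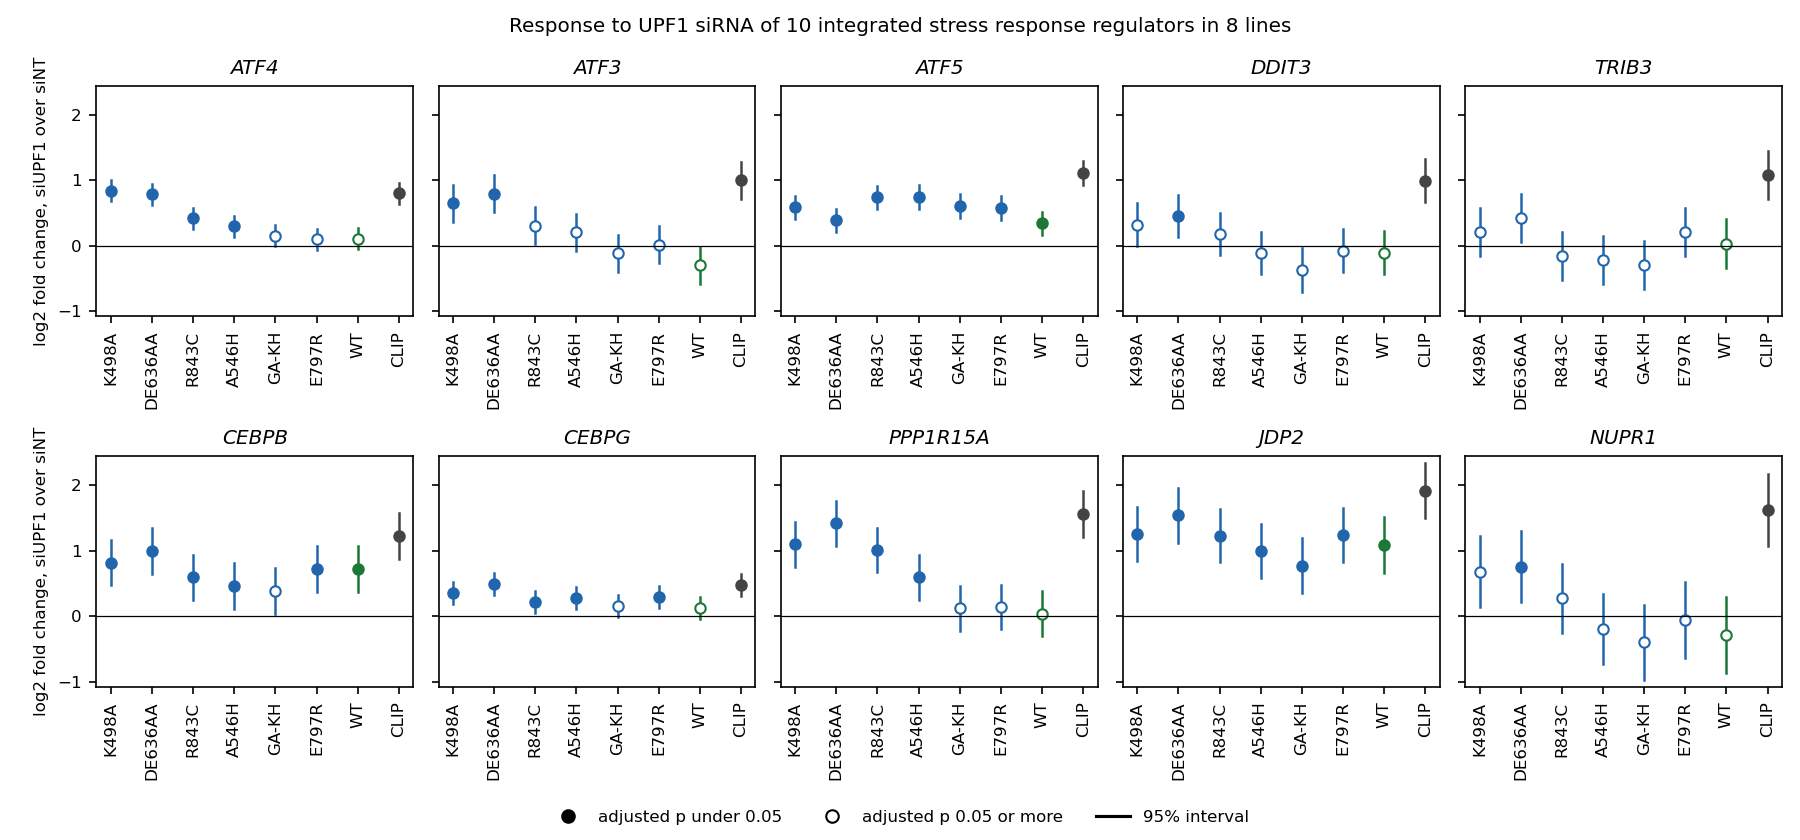
Log2 fold change of siUPF1 over siNT (y axis) in each of 8 lines (x axis) for the 10 regulators, 1 panel a gene. Points are edgeR estimates from 3 against 3 libraries with 95% intervals (mutant lines blue, WT green, CLIP grey), filled where the adjusted p was under 0.05; JDP2 and ATF5 are filled in all 8 lines, TRIB3 in CLIP alone.

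The members fell into different patterns across the lines. JDP2 and ATF5 rose in 8 of 8 lines, CEBPB in 7 and CEBPG in 6. ATF4 and PPP1R15A rose in 5 lines, K498A, DE636AA, R843C, A546H and CLIP, and were not called in GA-KH, E797R or WT. ATF3 rose in K498A, DE636AA and CLIP, DDIT3 and NUPR1 in DE636AA and CLIP, and TRIB3 in CLIP. Each response was set against those of CLIP and of WT in a test of the difference, given further on, since a call in 1 line and not in another does not show that the lines differ.

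ATF4 drew the most counts of the 10 members. With siUPF1 its libraries held 1441, 1338 and 1562 CPM in K498A, against 764, 761 and 902 CPM with siNT. In DE636AA they held 1432, 1398 and 1570 CPM with siUPF1, against 816, 810 and 928 CPM with siNT. In CLIP they held 1294, 1378 and 1388 CPM with siUPF1, against 759, 764 and 809 CPM with siNT. In these 3 lines every siUPF1 library lay above every siNT library with a wide gap. The log2 fold changes were 0.84 in K498A (adjusted p = 2.47e-10), 0.78 in DE636AA (9.71e-10) and 0.80 in CLIP (2.03e-10), each with SE 0.08 by edgeR.

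In R843C the siUPF1 libraries of ATF4 held 1434, 1391 and 1455 CPM, against 1089, 1038 and 1079 CPM with siNT. In A546H they held 1390, 1442 and 1465 CPM with siUPF1, against 1140, 1090 and 1277 CPM with siNT. The groups did not overlap in either line, and the fold changes were smaller, 0.42 in R843C and 0.29 in A546H on the log2 scale (edgeR adjusted p = 9.08e-05 and 0.00464). With siUPF1 these lines stood at the level of CLIP or above it, so that the smaller fold change came with higher siNT values. The remaining lines showed no called change. GA-KH held 975, 981 and 1039 CPM with siUPF1 against 817, 910 and 968 CPM with siNT. E797R held 859, 795 and 978 CPM with siUPF1 against 805, 782 and 878 CPM with siNT. WT held 872, 894 and 1053 CPM with siUPF1 against 840, 869 and 906 CPM with siNT. Groups overlapped in E797R and WT, and in GA-KH the lowest siUPF1 library lay just above the highest siNT library. Same-numbered siUPF1 and siNT libraries deviated together in GA-KH and in K498A. With the replicate number as a block, ATF4 was called in GA-KH (0.15, edgeR adjusted p = 0.025), as was CEBPB (0.39, 0.0102), for 4 members in place of 2. NUPR1 was called in K498A (0.69, 0.000926), for 8 in place of 7. The block was a replicate effect common to all lines, not a pairing fitted within each line.

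Ordered by mean level, the groups of ATF4 formed a high block and a low block, with the siNT groups of A546H and R843C between. The highest 5 were the siUPF1 groups of DE636AA (1467 ± 91.1 CPM), K498A (1447 ± 112), A546H (1432 ± 38.4), R843C (1427 ± 32.6) and CLIP (1353 ± 51.6; SD, n = 3 each). The libraries of the first 4 overlapped from neighbour to neighbour. Those of R843C siUPF1 lay just above those of CLIP siUPF1 (lowest 1391 against highest 1388 CPM). Then came the siNT groups of A546H (1169 ± 96.8) and R843C (1069 ± 27.0), which did not overlap the CLIP siUPF1 libraries above them. They were barely apart from each other (lowest 1090 against highest 1089 CPM). R843C siNT overlapped the next group below, GA-KH siUPF1 (lowest 1038 against highest 1039 CPM). The next 9 groups, GA-KH siUPF1 at 998 ± 35.4 CPM down to CLIP siNT at 778 ± 27.2 CPM, overlapped from neighbour to neighbour. ATF4 counts were not whole numbers, to within 0.005, in 47 of 48 libraries. There are 4 annotated ATF4 pseudogenes, and whether they share reads with ATF4 was not tested, so the absolute level is uncertain.

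**Figure D2:**
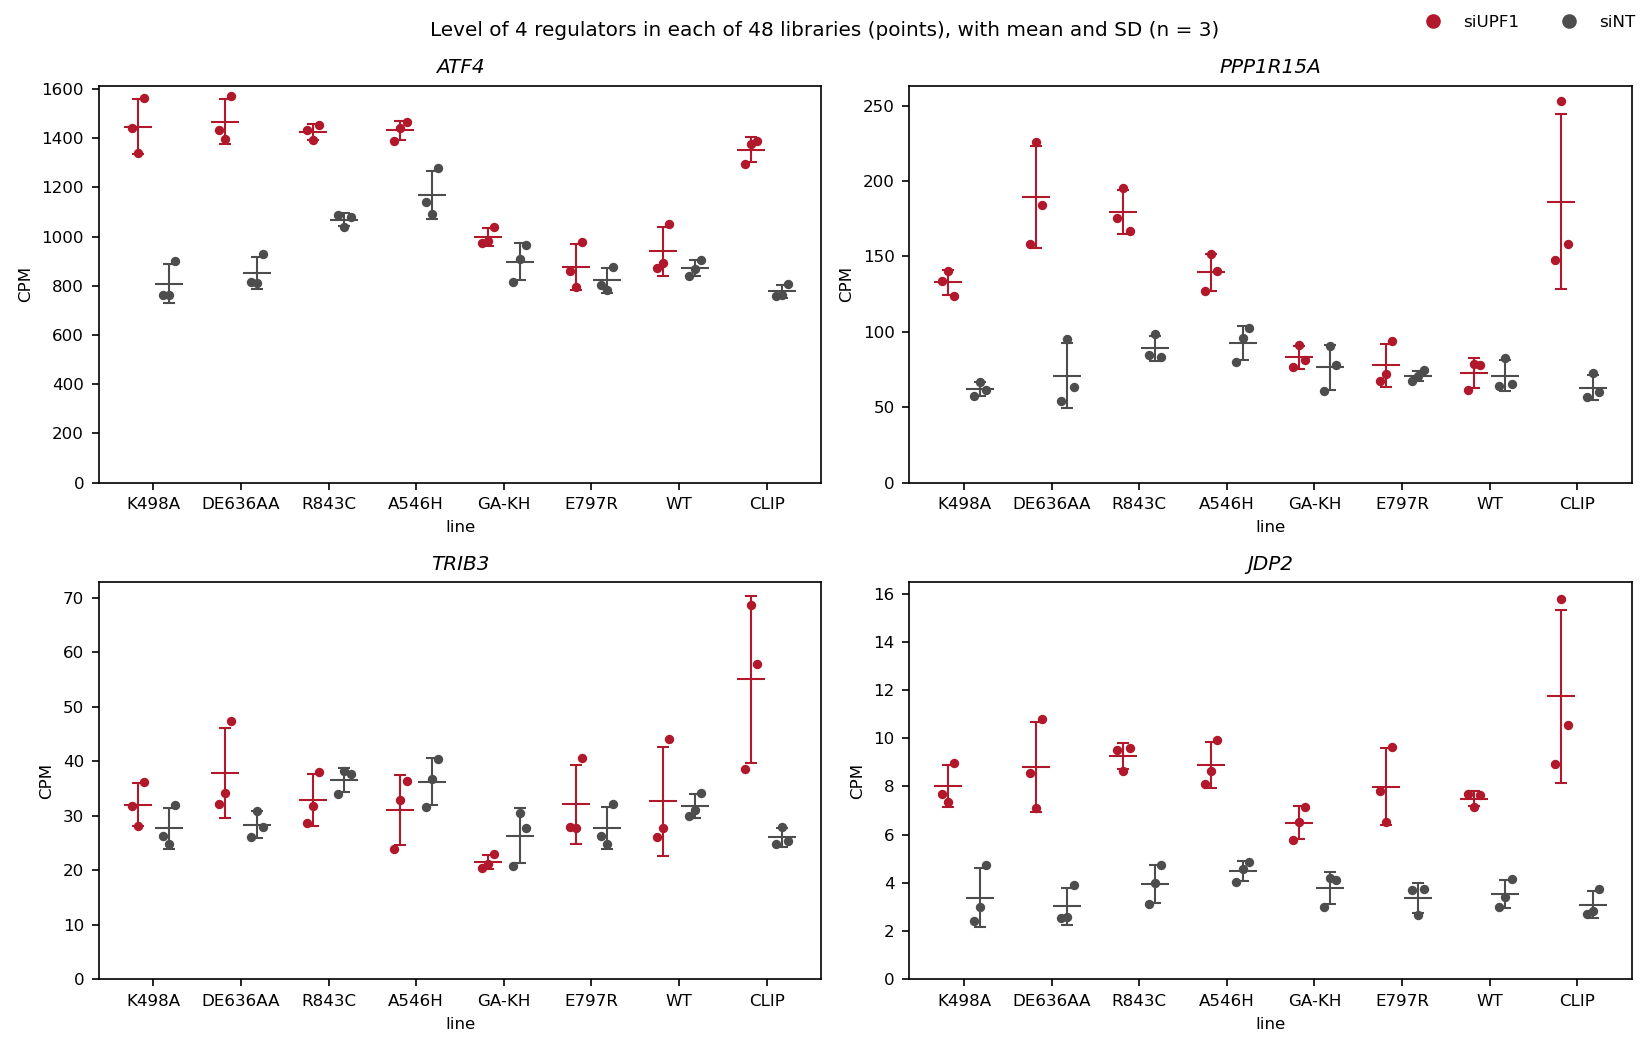
CPM (y axis, from 0) of ATF4, PPP1R15A, TRIB3 and JDP2 in every library by line (x axis), siUPF1 left of siNT. Points are libraries, bars the mean and SD of 3; ATF4 with siNT is highest in A546H and R843C, and the CLIP siUPF1 libraries of PPP1R15A, TRIB3 and JDP2 are widely spread with replicate 2 the highest.

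PPP1R15A, the GADD34 gene, followed the pattern of ATF4 with larger changes. Its libraries held 158.5, 225.6 and 184.1 CPM with siUPF1 in DE636AA, against 54.2, 95.3 and 63.2 CPM with siNT. In CLIP they held 147.6, 252.8 and 158.3 CPM with siUPF1, against 56.7, 72.4 and 59.8 CPM with siNT. Every siUPF1 library exceeded every siNT library in both lines, and the high value of CLIP belongs to replicate 2. In WT, by contrast, PPP1R15A held 61.4, 78.8 and 78.0 CPM with siUPF1 against 64.4, 82.9 and 65.3 CPM with siNT. Those groups overlapped. The response was 1.10 for K498A, 1.42 for DE636AA, 1.01 for R843C, 0.59 for A546H and 1.56 for CLIP (edgeR adjusted p from 2.41e-09 to 0.00775), against 0.12 in GA-KH, 0.14 in E797R and 0.04 in WT. Without A546H siNT replicate 1 the A546H response was 0.48 and no longer called (adjusted p = 0.0671).

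ATF3, a bZIP factor induced by many stresses, held 91.8, 100.5 and 84.4 CPM with siUPF1 in DE636AA, against 49.2, 61.7 and 48.5 CPM with siNT. In CLIP it held 96.0, 96.3 and 92.3 CPM with siUPF1, against 44.7, 56.7 and 40.7 CPM with siNT. The groups were apart in both lines. In WT the order was the other way, with 48, 48.8 and 41.1 CPM for siUPF1 against 56.4, 63.0 and 50.5 CPM for siNT, but the log2 fold change of -0.30 (SE 0.14) was not called (edgeR adjusted p = 0.129). ATF3 rose by 0.65 in K498A, 0.80 in DE636AA and 1.00 in CLIP (adjusted p = 0.000536, 3.34e-05 and 3.88e-07).

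DDIT3, TRIB3 and NUPR1, which act downstream of ATF4, responded in the fewest lines. TRIB3 held 38.5, 68.7 and 57.9 CPM with siUPF1 in CLIP, against 24.8, 28.0 and 25.4 CPM with siNT. In K498A it held 31.7, 28.2 and 36.2 CPM with siUPF1, against 26.3, 24.9 and 31.9 CPM with siNT. In WT it held 26.0, 27.7 and 44.1 CPM with siUPF1, against 29.9, 31.1 and 34.2 CPM with siNT. The groups were apart in CLIP and overlapped in K498A and WT. The response in CLIP was 1.08 (SE 0.19; edgeR adjusted p = 1.04e-05), and in the other lines it lay between -0.29 in GA-KH and 0.42 in DE636AA with no call. The value of DE636AA was called with only the libraries of that line (0.44, adjusted p = 0.0389), with no filter on low counts (0.44, 0.00152) and with a replicate block (0.40, 0.0177).

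DDIT3 held 28.4, 49.8 and 39.6 CPM with siUPF1 in CLIP, against 17.8, 22.6 and 18.7 CPM with siNT. Its response was 0.99 in CLIP (adjusted p = 5.47e-06) and 0.46 in DE636AA (0.0308, both by edgeR). GA-KH stood lowest, at -0.37 (SE 0.17; adjusted p = 0.0955). It was called lower in GA-KH without siUPF1 replicate 2 or siNT replicate 1 of that line (-0.53 and -0.54, adjusted p = 0.0422 and 0.021), and with no filter on low counts (-0.40, 0.0116). NUPR1, a small stress-induced chromatin protein, held 10.0, 11.9 and 15.9 CPM with siUPF1 in CLIP, against 3.57, 3.00 and 5.69 CPM with siNT. It rose by 1.63 in CLIP and by 0.76 in DE636AA (SE 0.28 each; edgeR adjusted p = 7.92e-06 and 0.0304), and in K498A its 0.68 was not called (0.0564). The DE636AA calls are the weakest of these. That of DDIT3 was lost without siUPF1 replicate 2 or 3 or siNT replicate 1 or 3 (0.345 to 0.479, adjusted p up to 0.164), and that of NUPR1 without siUPF1 replicate 3 or siNT replicate 1 or 2 (0.56 to 0.65, up to 0.171). Other genes overlap DDIT3 in the annotation, MARS and MBD6 on the opposite strand and AC022506.1 and MIR616 on the same strand. Its counts are therefore uncertain whether or not strand was used.

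JDP2, which encodes a bZIP repressor that pairs with Jun proteins, rose in all 8 lines. Its libraries held 7.67, 7.12 and 7.66 CPM with siUPF1 in WT, against 2.99, 3.42 and 4.14 CPM with siNT. In CLIP they held 8.92, 15.8 and 10.5 CPM with siUPF1, against 2.70, 2.83 and 3.74 CPM with siNT. The groups were apart in all 8 lines. Responses ran from 0.77 in GA-KH (SE 0.21; adjusted p = 0.00474) to 1.92 in CLIP (SE 0.21; 1.75e-09), with 1.09 in WT (0.000146, all by edgeR). JDP2 has an antisense neighbour in the annotation, and its deposited counts were low, between 71 and 395 a library.

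ATF5, a bZIP factor whose mRNA carries regulatory upstream frames like that of ATF4, also rose in every line. It held 31.8, 31.2 and 30.7 CPM with siUPF1 in WT, against 24.5, 25.7 and 23.8 CPM with siNT. In CLIP it held 47.5, 50.2 and 45.0 CPM with siUPF1, against 21.3, 21.5 and 23.5 CPM with siNT. Again every siUPF1 library exceeded every siNT library in each line. Its estimates stood in another order of lines than those of ATF4. The response was 0.74 for both R843C and A546H, 0.61 for GA-KH and 0.57 for E797R, against 0.39 in DE636AA, 0.34 in WT and 1.10 in CLIP (SE 0.09 each; edgeR adjusted p from 1.5e-12 to 0.00465). K498A stood at 0.58, beside E797R. No difference of the ATF5 response from that in WT was called, with values from 0.045 in DE636AA to 0.40 in A546H. The order among the mutant lines was not tested. ATF5 overlaps NUP62 and IL4I1 on the opposite strand and MIR4751 on the same strand, so its counts are uncertain in the same way as those of DDIT3.

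The C/EBP partners of ATF4 rose in most lines. CEBPB held 26.3, 29.2 and 42.6 CPM with siUPF1 in WT, against 18.2, 20.04 and 21.3 CPM with siNT, and 31.8, 54.9 and 38.4 CPM with siUPF1 in CLIP, against 15.1, 18.3 and 19.8 CPM with siNT. The responses were 0.72 in WT and 1.23 in CLIP (SE 0.18 each; edgeR adjusted p = 0.0021 and 4.23e-07). Values between these were found in K498A (0.82) and DE636AA (1.00), and lower ones in R843C (0.59) and A546H (0.46). E797R stood at 0.72 and GA-KH, with 0.38, was not called (edgeR adjusted p = 0.111). Without siUPF1 replicate 3 the response of CEBPB was 0.46 in WT (adjusted p = 0.0702) and 0.50 in E797R (0.0507). In R843C it lost the call without siUPF1 replicate 3 or siNT replicate 1 (0.51 and 0.52, adjusted p up to 0.0561), and in A546H without siUPF1 replicate 2 or 3 or siNT replicate 1 or 2 (0.37 to 0.48, up to 0.186). An antisense gene, CEBPB-AS1, overlaps it.

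CEBPG, the partner with the smallest changes, held 368.4, 367.0 and 350.6 CPM with siUPF1 in DE636AA, against 243.8, 283.1 and 242.7 CPM with siNT. In CLIP it held 352.9, 274.3 and 392.1 CPM with siUPF1, against 228.8, 254.6 and 247.5 CPM with siNT. Here CLIP siUPF1 replicate 2 was the lowest of the CLIP siUPF1 libraries, while for CEBPB, DDIT3, TRIB3, PPP1R15A and JDP2 it was the highest. For ATF3 and ATF5 it was the highest as well, by a small margin. The called responses ran from 0.215 in R843C (SE 0.09; edgeR adjusted p = 0.0499) to 0.50 in DE636AA (1.59e-05). The R843C call was lost without any 1 of its 6 libraries (0.185 to 0.246, adjusted p = 0.0566 to 0.156), the A546H call without siNT replicate 1 (0.247, adjusted p = 0.0519) and the E797R call without siNT replicate 1 or 2 (0.220 and 0.251, adjusted p = 0.0852 and 0.0515). With only the CLIP libraries in the fit, the CEBPG response in CLIP, 0.47, missed the threshold (adjusted p = 0.0508). Leaving out CLIP siUPF1 replicate 2 kept all 10 calls in CLIP, with responses of 0.78 for ATF4, 0.98 for ATF3, 1.06 for ATF5, 0.78 for DDIT3, 0.88 for TRIB3, 0.97 for CEBPB, 0.60 for CEBPG, 1.27 for PPP1R15A, 1.65 for JDP2 and 1.67 for NUPR1.

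How far each CLIP-UPF1 line differed from the line with the tag alone was tested as the difference of its response from that of CLIP. Called differences were all lower, for 2 members for K498A, 1 for DE636AA, 1 for R843C, 6 for A546H, 9 for GA-KH, 7 for E797R and 8 for WT. Of all tested genes the share called lower was 9.57% for K498A, 11.6% for DE636AA, 0.643% for R843C, 4.03% for A546H, 9.44% for GA-KH, 8.52% for E797R and 8.08% for WT. The median difference of the 10 members was -0.49 for K498A, -0.30 for DE636AA and -0.66 for R843C. In R843C all 10 estimates lay between -1.36 and -0.265. These comparisons share the CLIP libraries. Other fits moved the number of calls both ways. No filter on low counts added 15 calls and ended 1, DESeq2 added 10 and a replicate block added 17. With only the libraries of the groups compared in each fit, 16 of the 34 calls were lost, which left 0 for K498A, 1 for DE636AA, 0 for R843C, 1 for A546H, 6 for GA-KH, 5 for E797R and 5 for WT. The ATF4 difference in A546H was among those lost (-0.52, adjusted p = 0.09), as were the called differences of TRIB3 other than that in GA-KH (-1.315 to -0.876, adjusted p = 0.0789 to 0.195). ATF4 differed by -0.65 in GA-KH, -0.70 in E797R, -0.69 in WT and -0.51 in A546H (SE 0.12 each; edgeR adjusted p from 2.29e-05 to 0.00452). In A546H ATF4 was not lower than in CLIP with siUPF1 (mean 1432 against 1353 CPM) and was higher with siNT (1169 against 778 CPM). Its response in K498A differed from that in CLIP by 0.04 (95% interval -0.19 to 0.26) and that in DE636AA by an amount between -0.24 and 0.21, and neither was called. In R843C the difference was -0.38 (adjusted p = 0.124), and it was called without CLIP siUPF1 replicate 1 (-0.44, adjusted p = 0.0465).

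TRIB3 parted from ATF4 in the ATPase mutant K498A, where its response was lower than that in CLIP by -0.87 (95% interval -1.39 to -0.35; edgeR adjusted p = 0.0239). This call was lost without K498A siUPF1 replicate 2, K498A siNT replicate 3, CLIP siUPF1 replicate 2 or CLIP siNT replicate 1 or 3 (-0.85 to -0.68, adjusted p = 0.0501 to 0.108). In DE636AA the difference of TRIB3 was -0.66 (interval -1.18 to -0.14) and was not called (adjusted p = 0.079), except without DE636AA siUPF1 replicate 3 or CLIP siUPF1 replicate 1 (-0.87 and -0.85). ATF5 was lower than in CLIP by -0.52 in K498A and -0.72 in DE636AA (SE 0.13 each; adjusted p = 0.00521 and 0.000124). In R843C the called member was again TRIB3, at -1.24 (adjusted p = 0.011), lost without R843C siUPF1 replicate 1 (-1.17, adjusted p = 0.0548). In E797R the difference of TRIB3, -0.87 (adjusted p = 0.0236), was lost without E797R siUPF1 replicate 1 or 2, E797R siNT replicate 3, CLIP siUPF1 replicate 2 or CLIP siNT replicate 1 or 3 (-0.86 to -0.71, adjusted p up to 0.0932).

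CEBPG, CEBPB and JDP2 had a called difference from CLIP in 1 line each, none of them called with only the libraries of the groups compared. CEBPG was called in WT (-0.36, edgeR adjusted p = 0.0471), and that call was lost without any WT library, without CLIP siUPF1 replicate 3 and without CLIP siNT replicate 1 or 3 (-0.39 to -0.26, adjusted p = 0.0554 to 0.124). CEBPB was called in GA-KH (-0.85, adjusted p = 0.0188) and lost the call without GA-KH siUPF1 replicate 1, GA-KH siNT replicate 3, CLIP siUPF1 replicate 2 or CLIP siNT replicate 1 (-0.81 to -0.62, adjusted p up to 0.113). JDP2 was called in GA-KH as well (-1.15, adjusted p = 0.00754). By contrast PPP1R15A was lower than in CLIP by -1.53 in WT and ATF3 by -1.30 (edgeR adjusted p = 2.34e-05 and 1.45e-05), the responses of both in WT being close to 0 or below it. In A546H the called difference of ATF3, -0.80, was lost without CLIP siNT replicate 3 (-0.70, adjusted p = 0.0565) and that of PPP1R15A, -0.97, without CLIP siUPF1 replicate 2 (-0.70, 0.08).

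**Figure D3:**
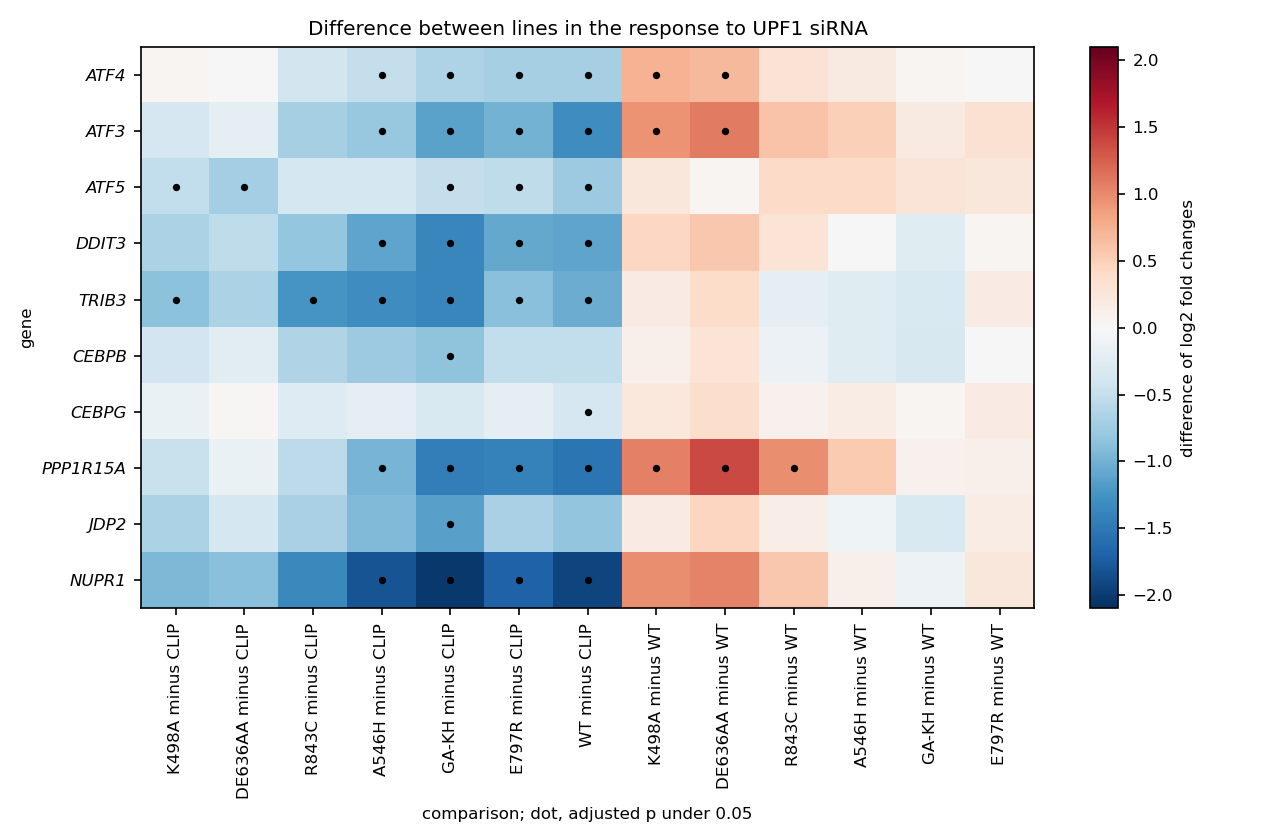
Difference of the response to siUPF1 (colour, difference of log2 fold changes) for 10 regulators (rows) between each mutant or WT line and CLIP (left 7 columns) and between each mutant line and WT (right 6 columns). Dots mark an adjusted p under 0.05; GA-KH minus CLIP has 9 dots, and K498A and DE636AA minus WT have 3 each, at ATF4, ATF3 and PPP1R15A.

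Against the line with wild-type CLIP-UPF1, 3 members responded more in K498A and 3 in DE636AA, ATF4, ATF3 and PPP1R15A in both. R843C had 1, PPP1R15A, and A546H, GA-KH and E797R had 0. The share of all tested genes called higher was 1.44% for K498A, 1.78% for DE636AA, 1.68% for R843C, 0.256% for A546H, 0% for GA-KH and 0% for E797R. ATF4 differed from WT by 0.73 in K498A and 0.68 in DE636AA (SE 0.12 each; edgeR adjusted p = 9.67e-05 and 0.0002). ATF3 differed by 0.94 in K498A and 1.10 in DE636AA, and PPP1R15A by 1.06 in K498A, 1.38 in DE636AA and 0.97 in R843C (adjusted p from 0.000349 to 0.0228). The R843C call was lost without R843C siUPF1 replicate 2, R843C siNT replicate 1 or 3, WT siUPF1 replicate 1 or WT siNT replicate 2 (0.85 to 0.94, adjusted p up to 0.111). For JDP2 and CEBPB the differences from WT lay within 0.46 of 0 in every mutant line and none was called. These comparisons share the WT libraries.

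With siNT, that is with the endogenous UPF1 present, ATF4 was the single member called between lines. It was higher in A546H than in CLIP by 0.59 and in R843C than in CLIP by 0.46 (SE 0.08 each; edgeR adjusted p = 4.26e-05 and 0.00317), and higher in A546H than in WT by 0.42 (0.00603). The other members leaned the same way in these 2 lines without a call. Relative to CLIP the estimates of the 10 members ran from 0.15 to 1.04 in A546H (median 0.48) and from 0.16 to 1.00 in R843C (median 0.43). The median was 0.07 for K498A, 0.12 for DE636AA, 0.13 for GA-KH, 0.10 for E797R and 0.17 for WT. The median of all tested genes lay between -0.002 and 0.013. Few genes were called at all. Relative to CLIP the share called higher was 0.0261% for K498A, 0.69% for DE636AA, 0.0836% for R843C, 0.0993% for A546H, 0.0575% for GA-KH, 0.0105% for E797R and 0.0157% for WT. Relative to WT it was 0.0105% for K498A, 0.0105% for DE636AA, 0.0575% for R843C, 0.533% for A546H, 0.068% for GA-KH and 0.00523% for E797R. In A546H relative to CLIP that is 19 genes, UPF1 itself included, and in R843C 16. Ranked by p, ATF4 stood 5th of 19129 genes in A546H and 10th in R843C, both relative to CLIP. The R843C call was lost without CLIP siNT replicate 1 or 2 (0.44 and 0.45, adjusted p up to 0.0671), and that of A546H over WT without A546H siNT replicate 3 or WT siNT replicate 1 (0.36 and 0.40, up to 0.0858). The A546H difference from WT was also lost with only the libraries of the groups compared (0.43, adjusted p = 0.0565). In that kind of fit 6 members were called higher in R843C than in CLIP, DDIT3 (0.54), TRIB3 (0.49), CEBPG (0.25), PPP1R15A (0.50) and NUPR1 (1.01) beside ATF4. With no filter on low counts 5 were called in R843C and 5 in A546H. The shares above belong to the fit with all libraries and the filter, and cannot be set beside these counts. Shares of all genes in these other fits are not given here. NUPR1 had larger estimates than ATF4 with all libraries and the filter, 1.04 in A546H and 1.00 in R843C relative to CLIP (SE 0.28 each), and was not called (adjusted p = 0.227 and 0.444).

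**Figure D4:**
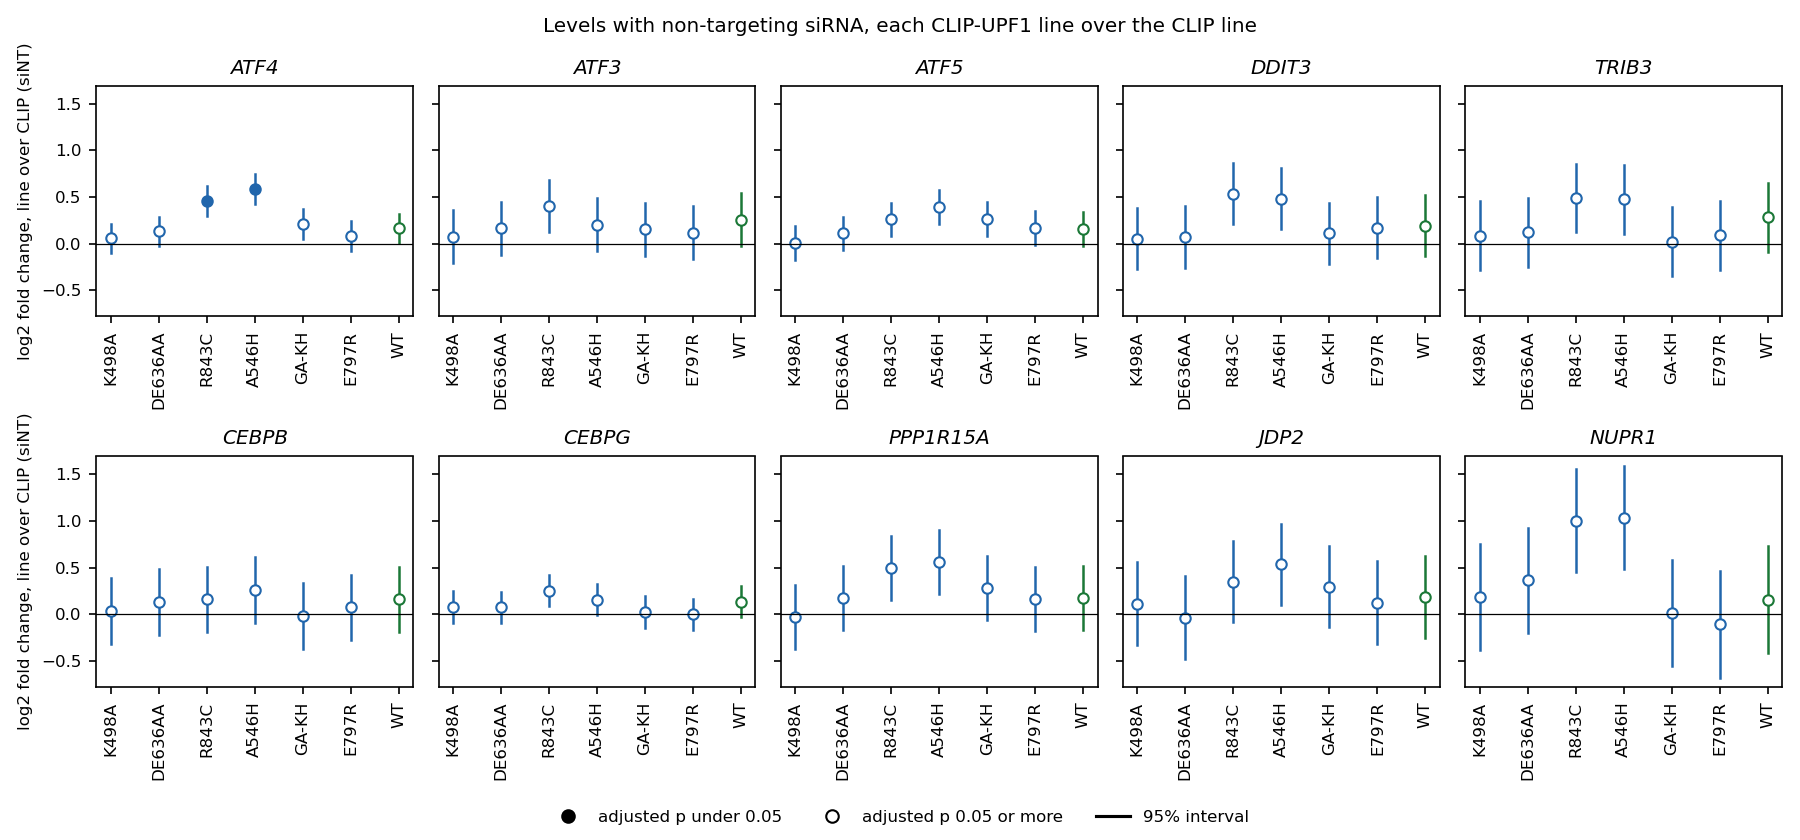
Log2 fold change of each CLIP-UPF1 line over CLIP with non-targeting siRNA (y axis) by line (x axis) for the 10 regulators. Points are edgeR estimates with 95% intervals (mutant lines blue, WT green), filled where the adjusted p was under 0.05; ATF4 in R843C and A546H are the filled points.

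The levels of the other members rose and fell with those of ATF4 over the 16 groups to different degrees. Pearson's r of the group means of log2 CPM with those of ATF4 was 0.95 for PPP1R15A, 0.90 for CEBPG, 0.85 for ATF3, 0.82 for NUPR1, 0.79 for JDP2, 0.75 for CEBPB, 0.74 for DDIT3, 0.73 for ATF5 and 0.56 for TRIB3. Within the 8 siNT groups r was 0.88 for TRIB3 and 0.89 for ATF5, and within the 8 siUPF1 groups it was 0.42 and 0.28. Over the genes whose mean reached 5 CPM, the 5 most like ATF4 were SMOX (0.954), COX19 (0.953), PPP1R15A (0.952), AC108488.3 (0.947) and TTC23 (0.941). SMOX encodes spermine oxidase and COX19 a factor for the assembly of cytochrome c oxidase. These r are a description over 16 groups that share the siRNA contrast and the normalisation.

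Of 9 eIF2 kinases and their regulators, which act upstream of ATF4, 2 rose and 2 fell in CLIP (median -0.02), near the shares of all tested genes, 25.1% higher and 22.3% lower. In K498A and in DE636AA 2 rose and 4 fell, where 16.2% and 16.7% of all genes rose and 16.5% and 17.6% fell. The called ones with the largest change in CLIP were GCN1L1, the activator of GCN2, at 0.71 (SE 0.11), IMPACT, which inhibits GCN2, at -0.48 (0.17), and EIF2AK2, the kinase PKR, at -0.46 (0.08). Of 12 subunits of eIF2, its exchange factor eIF2B and the eIF2 phosphatase 3 rose and 5 fell in CLIP (median -0.10), beside the same 25.1% and 22.3%. EIF2B2 rose by 0.69 (SE 0.09), while PPP1CC, a catalytic subunit of the phosphatase, stood at -0.57 (0.11) and EIF2B3 at -0.39 (0.08). Of the 12, 0 rose in K498A, DE636AA, R843C and A546H, and 6 fell in K498A, 5 in DE636AA, 4 in R843C and 3 in A546H. In these lines 16.5%, 17.6%, 14.8% and 15% of all tested genes fell.

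Of 22 related bZIP and tribbles genes 12 rose and 1 fell in CLIP (median 0.40), where 25.1% of all genes rose and 22.3% fell. In DE636AA 11 rose and 1 fell (16.7% and 17.6% of all genes), in GA-KH 5 rose and 3 fell (14.5% and 13.8%) and in WT 9 rose and 1 fell (14% and 13.3%). CREB3L2 was higher by 1.51 (SE 0.08) in CLIP, FOSB by 1.11 (0.29) and JUND, a partner of JDP2, by 1.01 (0.19). CREB3L2 was called higher in all 8 lines, with 1.32 in WT. In the ATF6 and XBP1 arm of the unfolded protein response 6 of 12 genes rose and 1 fell in CLIP (median 0.33), and 9 rose in DE636AA, against 25.1% and 16.7% of all genes called higher. Of all genes 22.3% fell in CLIP. The examples were HYOU1, a chaperone of the endoplasmic reticulum, at 1.35 (SE 0.11), ERN1, the IRE1 sensor, at 1.13 (0.13) and EDEM1 at 0.69 (0.07). Of 12 commonly used NMD targets all rose in CLIP (median 1.09), against 25.1% of all genes, among them BAG1 by 2.30 (SE 0.15), RP9P by 2.28 (0.15) and SNHG7 by 1.67 (0.12). Of these 12, K498A had 7 that rose, DE636AA 9, R843C 11, A546H 5, GA-KH 2, E797R 2 and WT 1, and 1 fell in E797R and in WT. The counts that rose in GA-KH, E797R and WT are near the 14.5%, 16% and 14% of all genes called higher. In E797R 13.5% of all genes fell and in WT 13.3%. RNA levels do not separate slower decay from more transcription for any of these genes.

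Of 24 targets of ATF4 and CHOP 13 rose and 3 fell in CLIP (median 0.35), 10 rose and 1 fell in DE636AA (0.05), 7 rose and 1 fell in K498A (0.04), 6 rose and 2 fell in R843C and in A546H, 5 rose and 2 fell in E797R, 4 rose and 5 fell in GA-KH and 4 rose and 3 fell in WT. Of all tested genes 25.1% rose in CLIP, 16.7% in DE636AA, 16.2% in K498A, 17.7% in R843C, 17.2% in A546H, 16% in E797R, 14.5% in GA-KH and 14% in WT. The counts that rose in E797R, GA-KH and WT lie near those shares. The share that fell was 22.3% in CLIP, 17.6% in DE636AA, 16.5% in K498A and 14.8% in R843C. It was 15% in A546H, 13.5% in E797R, 13.8% in GA-KH and 13.3% in WT. SESN2, the stress-induced regulator of growth signalling, rose by 1.96 (SE 0.13) in CLIP and was called higher in all 8 lines. STC2, a secreted glycoprotein, rose by 1.85 (0.14) in CLIP and stood at -0.01 in WT. FGF21 rose by 2.35 (0.43) in CLIP from very few reads, with 0.494 ± 0.0963 CPM with siUPF1 against 0.0915 ± 0.0400 CPM with siNT (SD, n = 3 each). ASNS, the asparagine synthetase gene, stood at -0.03 in CLIP and -0.00 in K498A with no call in any line, and PSAT1, an enzyme of serine synthesis, fell in all 8 lines, with -0.98 in CLIP, -1.12 in K498A and -1.002 in WT. ASNS and PSAT1 were named for this contrast after their values were seen.

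**Figure D5:**
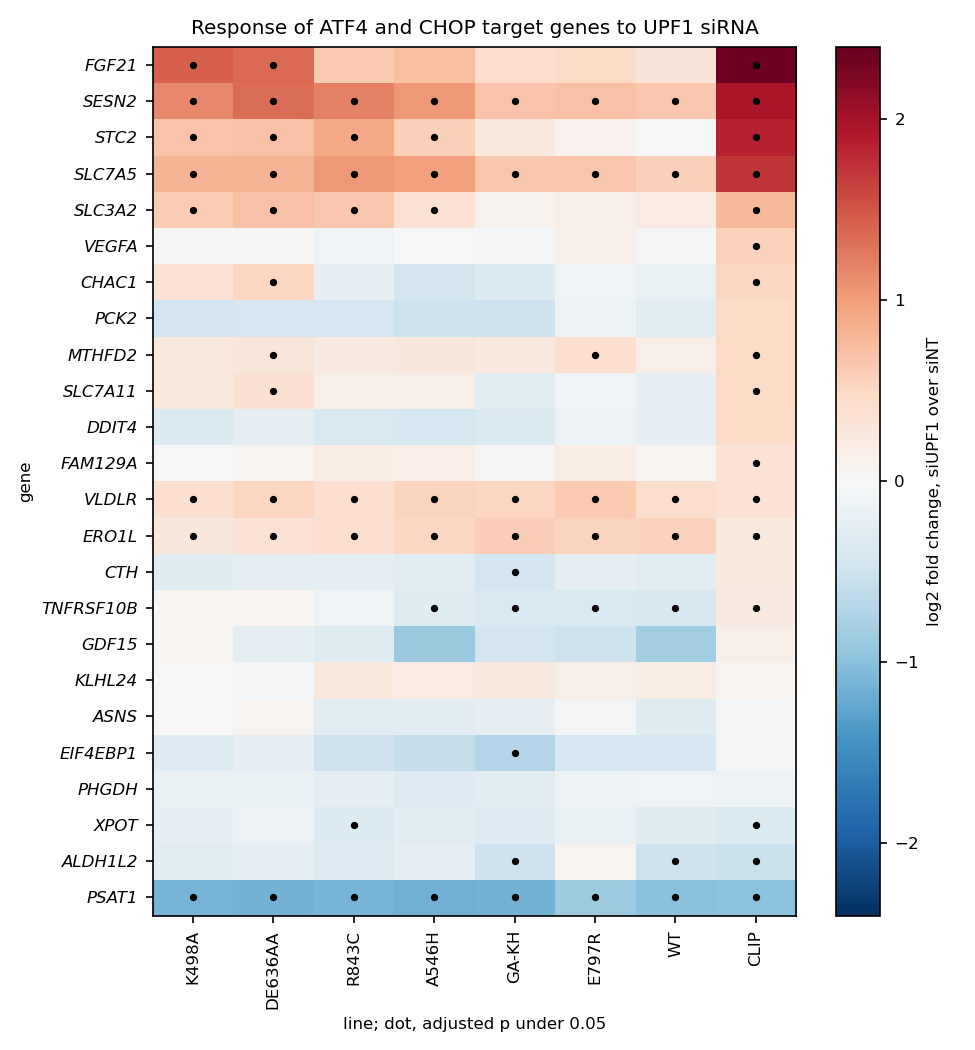
Log2 fold change of siUPF1 over siNT (colour) for 24 target genes of ATF4 and CHOP (rows, ordered by the value in CLIP) in 8 lines (columns). Dots mark an adjusted p under 0.05; FGF21, SESN2 and STC2 are at the top of CLIP and PSAT1 is lower in every line.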

How the data were processed

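Per the submitters' processing notes, the authors used cutadapt, STAR, RSEM and DESeq2 and the build hg19; versions, annotation release and strand setting are not given in the sources used here. The authors deposited expected counts per gene, not normalised. They were rounded and fitted in R 4.3.3 with edgeR 4.0.16 (TMM factors 0.974 to 1.04, quasi-likelihood, 1 term per group over all 48 libraries) after filterByExpr with the 16 groups, which kept 19129 genes with at least 99.94% of each library's counts. In all, 34 comparisons were made, with Benjamini-Hochberg adjustment within each and calls at 0.05. CPM are edgeR's, with a prior count of 2 on the log2 scale. Members, lists and the naming rule (all members, UPF1, the 3 called members of each list with the largest change in CLIP, and the 5 genes most like ATF4) were chosen with earlier results of these data known. Promoters and transcripts are of GRCh38, so no hg19 coordinates are given. Replicates were compared first and none agreed within sampling noise. The chi-square per gene between libraries of a group ran from 3.9 to 139. CLIP siUPF1 replicate 2 gave the largest values, 139 against replicate 1 and 136 against replicate 3. Replicates 1 and 3 of that group gave 15.9. Same-numbered siUPF1 and siNT libraries correlated above 0.1 in 15 of 24 pairs (-0.007 to 0.283), with all 3 pairs above it in K498A and in GA-KH. Numbers were taken to pair samples in those 2 lines. The main calls there still use no pairing, and no fit paired within a line was run. The other lines did not meet this rule, and whether their numbers pair samples is not known. The limit of 0.1 was a choice. The lowest pair stood at 0.097 in DE636AA, 0.092 in WT, 0.088 in A546H and 0.066 in R843C. The alternatives tried were other scaling factors, no filter, DESeq2, only the groups compared, a replicate block common to all lines, a stricter threshold and each library left out in turn.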

Additional observations from a re-analysis of the deposited data

Results flagged for a closer look

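The values here stand out because the response to UPF1 siRNA differed between lines in a test of the difference itself (edgeR, adjusted p under 0.05). The difference from CLIP was -0.52 in K498A, -0.72 in DE636AA, -0.50 in GA-KH, -0.53 in E797R and -0.765 in WT for ATF5. For TRIB3 the response minus that in CLIP was -0.87 in K498A, -1.235 in R843C, -1.30 in A546H, -1.37 in GA-KH, -0.87 in E797R and -1.05 in WT. ATF4 differed from CLIP by -0.51 in A546H, -0.65 in GA-KH, -0.705 in E797R and -0.69 in WT. The A546H value came with a higher siNT level and no lower siUPF1 level of ATF4, as given with the results. The difference from CLIP was -0.795 in A546H, -1.12 in GA-KH, -0.985 in E797R and -1.30 in WT for ATF3. For DDIT3 the response minus that in CLIP was -1.10 in A546H, -1.36 in GA-KH, -1.07 in E797R and -1.10 in WT. PPP1R15A differed from CLIP by -0.97 in A546H, -1.44 in GA-KH, -1.43 in E797R and -1.53 in WT. The difference from CLIP was -1.82 in A546H, -2.03 in GA-KH, -1.69 in E797R and -1.92 in WT for NUPR1. For CEBPB the response minus that in CLIP was -0.85 in GA-KH. JDP2 differed from CLIP by -1.15 in GA-KH. The difference from CLIP was -0.36 in WT for CEBPG. Relative to WT, ATF4 differed by 0.73 in K498A and 0.68 in DE636AA, ATF3 differed by 0.94 in K498A and 1.10 in DE636AA and PPP1R15A differed by 1.065 in K498A, 1.38 in DE636AA and 0.975 in R843C, all higher than in WT. The comparisons with CLIP share the CLIP libraries and those with WT share the WT libraries. Leaving out single libraries ended some of these calls, as given with the results. With only the libraries of the groups compared in each fit, 16 of the 34 calls relative to CLIP were lost and none of those relative to WT. With 3 libraries a group, single libraries were not screened for outlying values. CLIP siUPF1 replicate 2, which stood apart from its group, is in every comparison with the CLIP response.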

How the results depend on the processing

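Of 340 member values (10 members in 34 comparisons) 91 were called, and no called value changed sign under any alternative. Shares of all genes called under the alternatives are not given here. Counts of called members moved beyond 1.5 times as follows, and the cause was not tested. With no filter on low counts they were 5 in the GA-KH response (DDIT3 at -0.40 and TRIB3 at -0.32 among them, both lower), 5 in K498A, 4 in DE636AA and 6 in R843C minus CLIP, 5 in DE636AA, 2 in R843C and 1 in A546H minus WT, and with siNT 5 in R843C and 5 in A546H over CLIP, 1 in R843C and 3 in A546H over WT. A replicate block added 34 calls and ended none; counts with it were 4 in the GA-KH response, 5 in K498A, 3 in DE636AA and 6 in R843C minus CLIP, 5 in DE636AA and 3 in R843C minus WT, and with siNT 2 in R843C and 4 in A546H over CLIP, 2 in R843C and 2 in A546H over WT. Only the K498A and GA-KH responses met the rule for pairing given above, all 3 pairs above 0.1. Over all lines, 41 of 48 libraries correlated best with the library of their own number under the other siRNA. The numbers may therefore pair samples in other lines too, a hint from the data and not the design. The main calls use no pairing. Replicate 3 held the highest CPM in 91 of 160 member groups and replicate 1 in 15. With the libraries of the groups compared alone they were 0 in K498A, 0 in R843C, 1 in A546H and 5 in WT minus CLIP, 2 in R843C minus WT, and with siNT 6 in R843C over CLIP, 3 in R843C and 0 in A546H over WT; fewer libraries then estimate the spread. At an adjusted p under 0.01 they were 1 in K498A and 0 in R843C minus CLIP and 0 in R843C minus WT. With DESeq2 they were 5 in R843C minus CLIP and 2 with siNT in A546H over CLIP.

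Leaving out each library in turn gave 3 to 6 called members in the A546H response, 1 to 5 in K498A, 1 to 3 in DE636AA and 0 to 4 in R843C minus CLIP, 0 to 1 in R843C minus WT, and with siNT 0 to 1 in R843C and 1 to 2 in A546H over CLIP and 0 to 1 in A546H over WT. Over such fits and all single values 61 calls were lost and 42 gained, and the 10 calls in CLIP held in each of its 6. RLE factors shifted the median of all genes by at most 0.025 and upper-quartile factors by at most 0.081 (log2); CEBPB in A546H and CEBPG in R843C lost their calls under both, and the direction of no called member turned.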
